A study of Saccharomyces cerevisiae with 34 samples.

Results

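Synthesis of inositol and of the phospholipids built from phosphatidic acid was followed here through 10 yeast genes among the 6679 in each deposited table. They are INO1 (YJL153C), ITR1, CHO1, PSD1, CHO2, OPI3, CKI1 and the regulators INO2, INO4 and OPI1, chosen by name as standard genes of inositol-regulated phospholipid synthesis. All 10 were found in both tables by systematic name, and all 10 passed the filter of 5 RPKM (reads per kilobase of gene and size of library) on average over the auxin libraries, in mRNA and in footprints. INO1 footprints passed it only through the libraries with DTT. No gene in NCBI's RefSeq table for Saccharomyces cerevisiae overlapped any of them.

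The study sequenced mRNA and ribosome footprints, the mRNA fragments that ribosomes protect, from SK1 yeast in YEPD with 2% glucose at 30 °C, over 34 libraries. Its question was how the unfolded protein response, which follows misfolding in the endoplasmic reticulum (ER), and its transcription factor Hac1 change transcripts and their translation. In the deletion experiment, a WT culture and a culture with HAC1 deleted were each split into 3 that got no drug, the disulfide-reducing agent dithiothreitol (DTT) at 5 mM, or tunicamycin (Tm), an inhibitor of N-glycosylation, at 2 µg/mL. Each of these 6 groups had 1 mRNA and 1 footprint library. In the auxin experiment, a no-TIR strain and a strain carrying TIR, a plant F-box protein that lets auxin send tagged proteins to degradation, were exposed for 15 min to auxin (500 µM, with IP6 at 4 µM) or to vehicle. They were then given 5 mM DTT or no further agent. Libraries were taken at 1 h and 2 h. Auxin-treated TIR cells are called depleted, because the design text speaks of cells depleted for Hac1, and auxin-treated no-TIR cells are called retained. The labels do not describe the tag on Hac1, and Hac1 protein was not measured in these files. There were 6 groups, of which no-TIR cells with auxin alone had only a 1 h library of each molecule.

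Ino1 catalyses the first committed step of inositol synthesis from glucose 6-phosphate, and Itr1 imports inositol from the medium. Cho1 makes phosphatidylserine from CDP-diacylglycerol, Psd1 decarboxylates it to phosphatidylethanolamine, and the methyltransferases Cho2 and Opi3 turn that into phosphatidylcholine, while Cki1 phosphorylates choline for a separate route to the same lipid. The Ino2-Ino4 heterodimer activates many of these genes, and Opi1 represses them once inositol is plentiful and phosphatidic acid no longer holds Opi1 at the ER membrane. Cells without HAC1 are known to need added inositol for growth.

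In the auxin experiment, INO1 mRNA without DTT was 8.1 RPKM in the retained library, and in the depleted cells 8.4 at 1 h and 9.3 at 2 h. After DTT it was 127.2 and 88.7 RPKM at 1 h and 2 h in retained cells, 128.0 and 115.6 in vehicle-treated no-TIR cells, and 120.3 and 89.1 in vehicle-treated TIR cells. In depleted cells with DTT it was 24.4 and 20.3 RPKM. The 6 libraries with DTT and Hac1 all lay above the depleted pair, and that pair lay above all 3 libraries without DTT.

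INO1 footprints were further apart than INO1 mRNA. Without DTT they were 1.35 RPKM in the retained library and 1.69 and 1.59 in depleted cells. With DTT they were 88.0 and 65.7 RPKM in retained cells, 90.9 and 87.8 in vehicle-treated no-TIR cells, and 90.3 and 62.0 in vehicle-treated TIR cells. Depleted cells with DTT had 5.23 and 5.63 RPKM, above every library without DTT and under every library with DTT and Hac1.

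The footprint to mRNA ratio of INO1, a measure of ribosome density per transcript, was between 0.168 and 0.201 in the 3 libraries without DTT. It was between 0.692 and 0.760, with a median of 0.726, in the 6 libraries with DTT and Hac1. In depleted cells with DTT it was 0.214 at 1 h and 0.278 at 2 h. The percentiles of INO1 among 5329 genes were ranked on footprints minus mRNA, each as log2(RPKM + 1). They were 9.6 to 12.6 without stress, 56.2 to 61.8 with DTT and Hac1, and 6.6 and 13.6 with DTT after depletion. The added 1 RPKM weighs most on low values, so these ranks need not follow the order of the ratios.

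**Figure D1:**
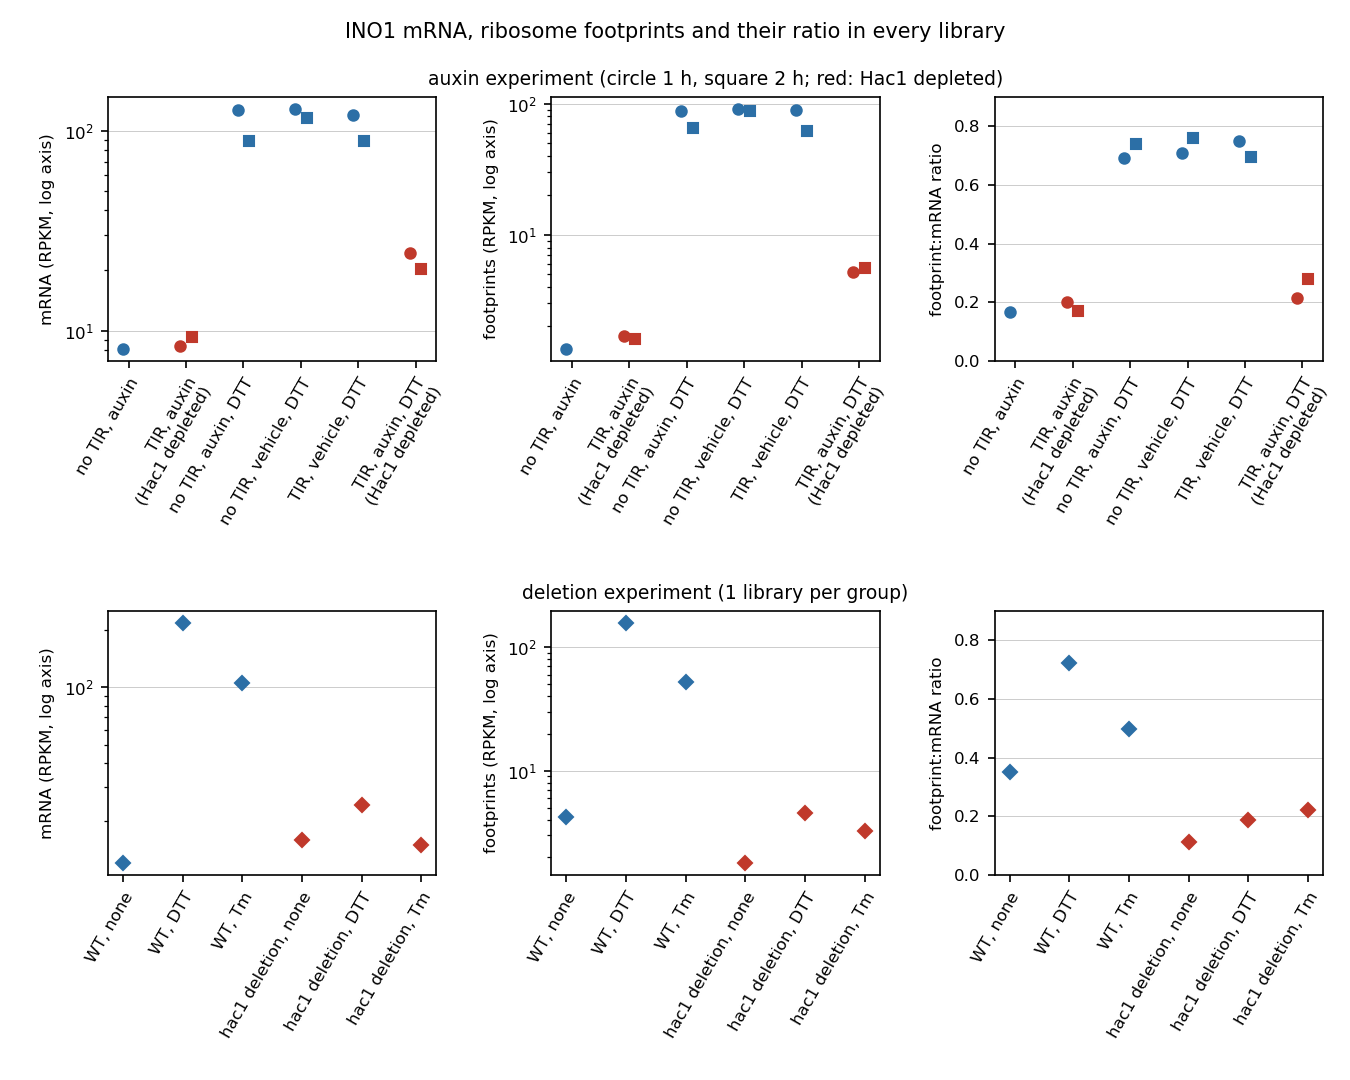
INO1 mRNA (RPKM, log axis), footprints (RPKM, log axis) and the ratio of footprint to mRNA (linear axis) in every library, with the auxin experiment above (circles 1 h, squares 2 h) and the deletion experiment below (diamonds), and red for depleted or hac1 deletion cells. Among the auxin experiment's DTT libraries, the ratio of the 6 with Hac1 starts at 0.692 and that of the depleted pair ends at 0.278.

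As ratios of mean RPKM, DTT went with 13.4-fold more INO1 mRNA, 56.9-fold more footprints and a 4.25-fold higher ratio in retained cells. In depleted cells the same quantities were 2.52-fold, 3.31-fold and 1.31-fold. The retained control for these folds was 1 library with 1.35 RPKM of footprints, and the depleted control was 2 libraries. Counting error in so low a value leaves the retained footprint and ratio folds imprecise. Under DTT itself, the retained level was 4.83-fold the depleted level in mRNA and 14.2-fold in footprints.

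All tests were made with limma on log2(RPKM + 1), with Benjamini-Hochberg adjustment over all genes tested; a gene was called, and said to rise or fall, at an adjusted p under 0.05. Changes are given as log2 change ± standard error from groups of 2 libraries (1 h and 2 h), or 1 for no-TIR cells with auxin alone. INO1 mRNA rose by 3.69 ± 0.22 with DTT in retained cells (adjusted p = 7.88e-07), the 20th largest increase among 5757 genes, and by 1.24 ± 0.18 in depleted cells (adjusted p = 1.40e-04). INO1 footprints rose by 5.13 ± 0.22 (adjusted p = 2.93e-06) and by 1.28 ± 0.17 (adjusted p = 3.20e-04). Because INO1 footprints passed the filter through the DTT libraries, the fit without any filter bears on this result, and it called both as well (adjusted p = 3.97e-04 and 0.00376).

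The translational efficiency of INO1, its footprint minus its mRNA value on the log2 scale, rose by 1.44 ± 0.20 in retained cells (adjusted p = 7.18e-04). That call ended with a pseudocount of 5 (0.56, adjusted p = 0.108) and with no filter on low values (adjusted p = 0.0723). In depleted cells its change was 0.04 ± 0.16 (adjusted p = 0.849). This scale compresses INO1, whose footprints without DTT were close to the 1 RPKM that is added. The retained control library held an estimated 4 INO1 footprint reads, an exact Poisson 95% interval of 0.369 to 3.46 RPKM, which like all intervals here covers counting error only.

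The DTT response of INO1 itself differed between depleted and retained cells. The difference (depleted minus retained) was -2.45 ± 0.29 in mRNA (adjusted p = 0.00136), -3.85 ± 0.28 in footprints (adjusted p = 8.66e-04) and -1.40 ± 0.25 in translational efficiency (adjusted p = 0.0378). In mRNA it was the 10th most negative such difference among the genes tested. It was the sole call among the 10 genes in each molecule, where 1.06%, 2.49% and 0.225% of all genes were called. The translational efficiency difference was called under 3 of the 11 alternatives tried, with adjusted p from 0.0275 to 0.586. Leaving out either retained DTT library, the 1 h depleted library without DTT or the 1 h depleted library with DTT each ended it, at values of -1.23 to -1.44. The mRNA difference missed the threshold in 1 alternative, with no filter on low values (adjusted p = 0.0912).

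Under DTT, depleted cells were compared with retained cells, and auxin-treated with vehicle-treated TIR cells. These comparisons share the depleted libraries, so they are not independent of each other. INO1 mRNA was lower by -2.21 ± 0.18 against retained cells (adjusted p = 2.32e-05) and by -2.17 ± 0.18 against vehicle (adjusted p = 3.79e-05). INO1 footprints were lower by -3.58 ± 0.17 (adjusted p = 3.09e-05) and -3.56 ± 0.17 (adjusted p = 2.87e-05), and its translational efficiency by -1.38 ± 0.16 (adjusted p = 3.26e-04) and -1.39 ± 0.16 (adjusted p = 3.48e-04). Both translational efficiency calls ended with no filter on low values (adjusted p = 0.205 and 0.147). At each hour the sign was the same: against retained cells the footprint difference was -3.84 at 1 h and -3.33 at 2 h.

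INO1 was the gene of the 10 called for translational efficiency between depleted and retained cells, where 0.244% of all genes were called, and between auxin and vehicle in TIR cells, where 0.263% were; with no filter 0 of the 10 were called in either. In mRNA, INO1, OPI3 and INO4 were lower in depleted than in retained cells, 3 of 10 genes where 3.75% of all genes were lower. INO1 and OPI3 were lower with auxin than with vehicle in TIR cells, 2 of 10 where 4.00% of all genes were lower. In footprints INO1 and INO2 were lower in both comparisons, where 5.79% and 4.81% of all genes were lower. With no filter on low values, or without the hour term, INO1 alone of the 10 was called in mRNA and in footprints in both comparisons.

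**Figure D2:**
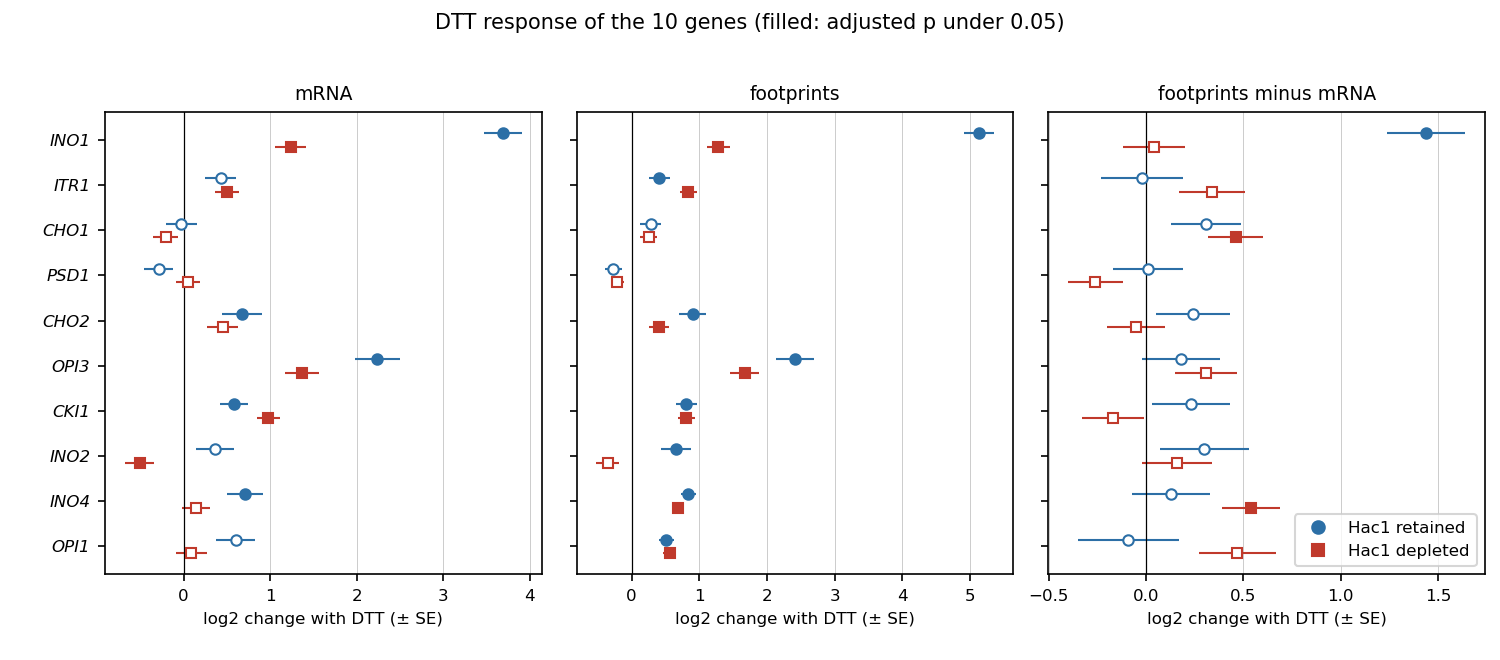
Log2 change with DTT, with bars of ± 1 standard error, for the 10 genes in mRNA, footprints and translational efficiency (footprints minus mRNA), with Hac1 retained (blue circles) or depleted (red squares) and filled symbols at an adjusted p under 0.05. INO1 shows the widest gap of the 10 in each panel, with 5.13 against 1.28 in footprints, and the CHO1 and PSD1 symbols are open in mRNA and footprints.

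Of the 10 genes, CHO2, INO1, OPI3, CKI1 and INO4 rose in mRNA with DTT in retained cells and none fell, where 28.6% of all genes rose. Their median change was 0.59, against 0.24 over all genes. In depleted cells ITR1, INO1, OPI3 and CKI1 rose and INO2 fell, where 41.1% of all genes rose and 17.5% fell, and the median was 0.30 against 0.26. That count in depleted cells is close to the background.

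In footprints 8 of the 10 rose in retained cells, all but CHO1 and PSD1, where 47.5% of all genes rose. In depleted cells 7 rose, all but INO2, CHO1 and PSD1, where 49.6% did. In translational efficiency INO1 alone was called in retained cells, where 1.91% of all genes rose. In depleted cells CHO1 and INO4 rose, where 12.5% did, a count close to the background. Scaling the libraries by median ratios lowers the median DTT change of all genes by 0.25 in mRNA. In footprints it lowers that median by 0.34 (retained) and 0.30 (depleted). For the 10 genes, the calls that this scaling ends or adds are given gene by gene.

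ITR1, the inositol importer, had footprints that rose with DTT in retained and in depleted cells. Its mRNA was between 801.0 and 855.4 RPKM in the 3 libraries without DTT, between 936.6 and 1175.7 in the 6 with DTT and Hac1, and 1243.8 and 1099.3 in depleted cells with DTT. Its footprints were between 169.4 and 190.3, between 238.2 and 300.1, and 326.3 and 284.5 RPKM in the same order. Every DTT library lay above every library without DTT in both molecules.

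ITR1 mRNA rose by 0.50 ± 0.14 in depleted cells (adjusted p = 0.00945), and its change in retained cells was 0.43 ± 0.18 (adjusted p = 0.0676). Its footprints rose by 0.41 ± 0.16 (retained, adjusted p = 0.0483) and by 0.84 ± 0.12 (depleted, adjusted p = 4.79e-04). Under median-ratio scaling neither the mRNA call (0.24, adjusted p = 0.177) nor the retained footprint call (0.06) was made. The retained footprint call was also lost with no filter (adjusted p = 0.0988) and without the hour term (adjusted p = 0.05). The mRNA call also ended without the 1 h depleted DTT library (0.46, adjusted p = 0.0524), and the retained footprint call without either retained DTT library (adjusted p up to 0.139). The ITR1 ratio was low throughout, between 0.198 and 0.275 over the 11 pairs of libraries.

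OPI3, whose product carries out the last methylations to phosphatidylcholine, had the largest change of the 10 after INO1 in retained cells. Its mRNA without DTT was 653.6 RPKM in the retained library and 655.9 and 661.8 in depleted cells. With DTT it was 2860.7 and 3230.4 in retained cells, 3021.0 and 4087.1 in vehicle-treated no-TIR cells, 3716.7 and 2678.6 in vehicle-treated TIR cells, and 1947.3 and 1486.3 in depleted cells. As for INO1, the depleted pair lay between the other libraries without overlap, but OPI3 kept a larger share of its increase.

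OPI3 mRNA rose by 2.24 ± 0.26 in retained cells (adjusted p = 6.39e-05) and by 1.37 ± 0.20 in depleted cells (adjusted p = 1.79e-04). It was lower by -0.84 ± 0.20 in depleted than in retained cells under DTT (adjusted p = 0.0331), and by -0.89 ± 0.20 with auxin against vehicle (adjusted p = 0.0261). The difference between the responses was -0.87 ± 0.33 and was not called (adjusted p = 0.29). Within hours the difference from retained cells was -0.55 at 1 h and -1.12 at 2 h. Leaving out any 1 of the 4 libraries compared with retained cells ended that call, at -0.62 to -1.05 with adjusted p up to 0.139, and leaving out 3 of the 4 ended the call against vehicle.

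OPI3 footprints were between 336.3 and 376.2 RPKM without DTT, between 1656.4 and 2501.7 with DTT and Hac1, and 1485.2 and 942.3 in depleted cells with DTT. They rose by 2.42 ± 0.28 and 1.67 ± 0.22 in retained and depleted cells. The footprint difference under DTT was -0.61 ± 0.22 and was not called (adjusted p = 0.143). It was -0.16 at 1 h and -1.05 at 2 h, and without the 1 h depleted DTT library it was called (-1.02, adjusted p = 0.0274), as was the footprint difference from vehicle in TIR cells (-1.06, adjusted p = 0.0303). The OPI3 ratio was between 0.513 and 0.676 with DTT and Hac1 and 0.763 and 0.634 in depleted cells, ranges that overlap.

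CHO2, the first methyltransferase of the route, went from between 219.7 and 265.0 RPKM of mRNA without DTT to between 335.4 and 428.8 with DTT and Hac1. Depleted cells with DTT had 436.0 RPKM at 1 h and 280.3 at 2 h, so the pair spanned the range of the cells with Hac1. CHO2 mRNA rose by 0.67 ± 0.23 in retained cells (adjusted p = 0.0378), and its change in depleted cells was 0.45 ± 0.18 (adjusted p = 0.0504). The depleted change was 0.82 at 1 h and 0.08 at 2 h, and it was called without the 2 h depleted DTT library (0.80, adjusted p = 0.00269) and with a pseudocount of 5 (adjusted p = 0.0497). CHO2 footprints rose in both, by 0.90 ± 0.20 (adjusted p = 0.00451) and 0.40 ± 0.15 (adjusted p = 0.0465). The retained mRNA call was lost under median-ratio scaling (0.42, adjusted p = 0.189) and without either retained DTT library (0.75 and 0.61). The depleted footprint call was lost under that scaling (0.10) and without the 1 h depleted library with DTT (0.13) or without DTT (0.24). Both calls also ended with no filter (adjusted p = 0.121 in each) and without the hour term (adjusted p = 0.0614 and 0.0741).

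CHO1 and PSD1, the upstream steps, were not called in mRNA or footprints for either DTT response. In depleted cells, leaving out the 2 h DTT library added a call for CHO1 footprints (0.41, adjusted p = 0.0452), and leaving out the 1 h DTT library a lower call for PSD1 footprints (-0.35, adjusted p = 0.0243). CHO1 mRNA was between 1079.8 and 1243.6 RPKM without DTT, between 1014.1 and 1227.2 with DTT and Hac1, and 1061.9 and 1013.3 in depleted cells with DTT. The ranges overlapped, and the changes were -0.03 in retained and -0.21 ± 0.14 in depleted cells. The CHO1 ratio was 0.976 and 0.846 in depleted cells with DTT against 0.644 to 0.673 without DTT, and its translational efficiency rose there by 0.46 ± 0.14 (adjusted p = 0.0395). That call was lost under median-ratio scaling (adjusted p = 0.0531) and in 3 of the 4 fits that left out a library, all but the one without the 2 h depleted DTT library (0.35 to 0.48, adjusted p up to 0.349), and the same scaling added a lower call for CHO1 mRNA in depleted cells (-0.47, adjusted p = 0.0174).

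PSD1 mRNA was between 214.0 and 231.2 RPKM without DTT, between 168.7 and 197.9 with DTT and Hac1, and 258.0 and 193.7 in depleted cells with DTT. The 6 libraries with DTT and Hac1 lay below the 3 without DTT, but the change of -0.29 ± 0.17 was not called (adjusted p = 0.209). Under median-ratio scaling PSD1 was called lower in retained cells, by -0.54 in mRNA (adjusted p = 0.0345) and -0.62 in footprints (adjusted p = 0.0021), and in depleted cells by -0.51 in footprints (adjusted p = 0.00109).

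CKI1, the choline kinase, had 59.3 to 66.5 RPKM of mRNA without DTT, 95.7 to 102.9 with DTT and Hac1, and 132.0 and 116.9 in depleted cells with DTT. It was the gene of the 10 whose depleted pair lay above all the libraries with Hac1 in mRNA. CKI1 mRNA rose by 0.58 ± 0.16 in retained cells (adjusted p = 0.0142) and by 0.98 ± 0.13 in depleted cells (adjusted p = 7.50e-05), while the direct comparison under DTT, 0.34 ± 0.13, was not called (adjusted p = 0.143). Its footprints rose by 0.81 ± 0.16 and 0.81 ± 0.13. The retained mRNA call was lost under median-ratio scaling (0.33, adjusted p = 0.119) and without the 2 h retained DTT library (0.52, adjusted p = 0.055). CKI1 was also the gene of the 10 with more footprint than mRNA RPKM in every library, at ratios of 1.32 to 1.95.

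**Figure D3:**
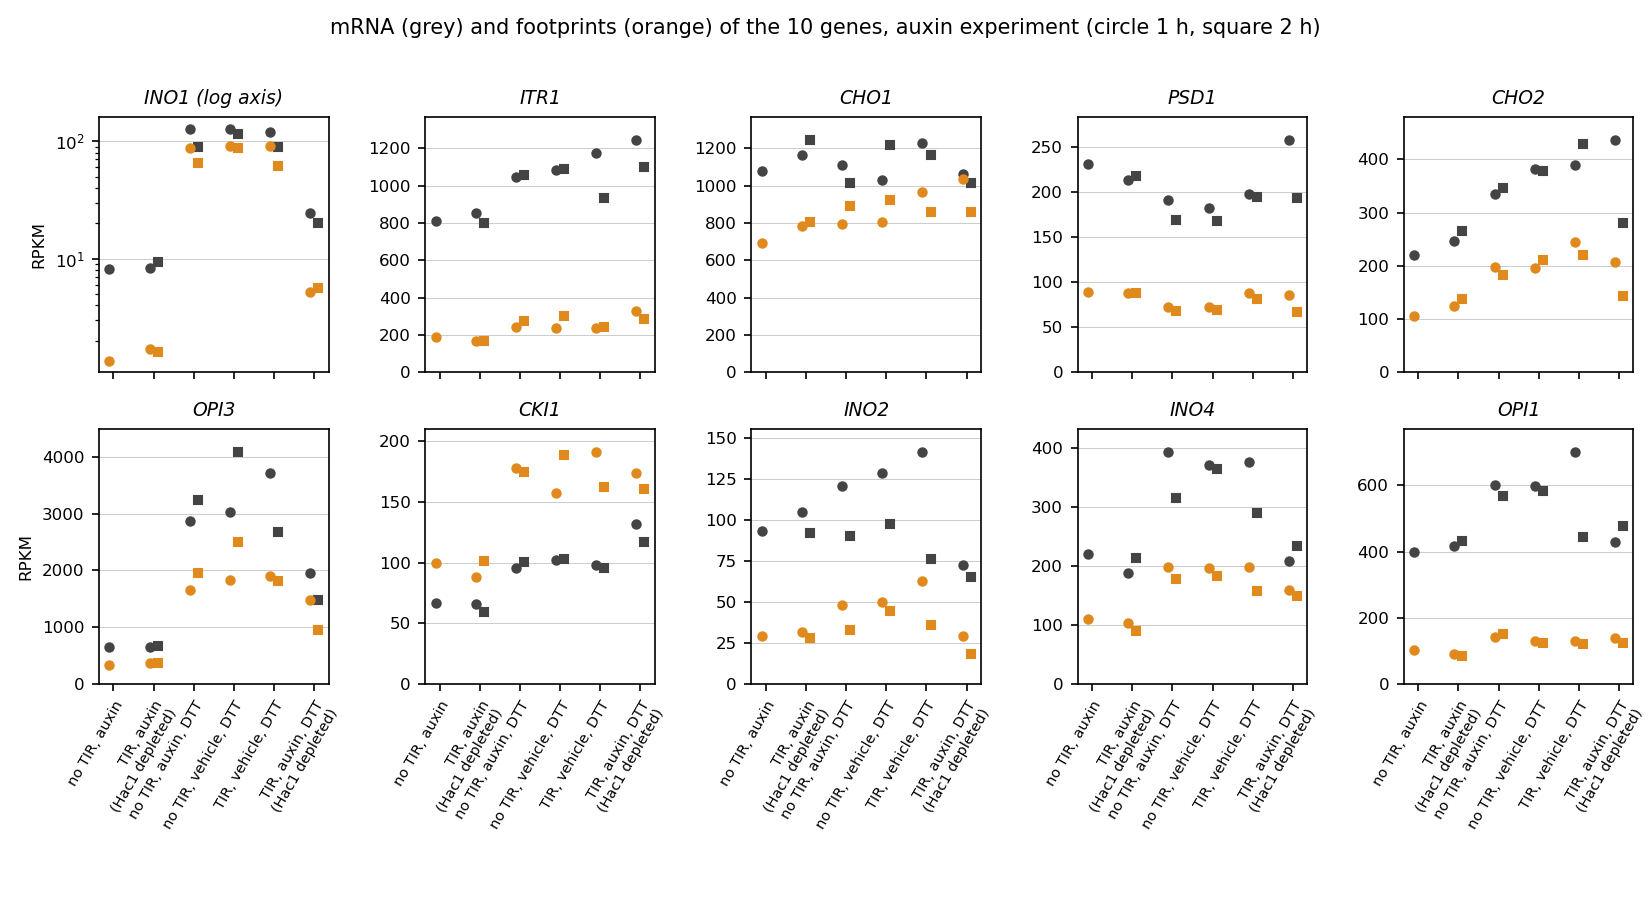
mRNA (grey) and footprint (orange) RPKM of the 10 genes in every auxin experiment library (circles 1 h, squares 2 h), 1 panel per gene with its own axis from 0, except a log axis for INO1. INO1 mRNA is at 8.1 to 9.3 RPKM without DTT, OPI3 mRNA reaches 4087.1 RPKM with DTT, and the CKI1 footprints lie above its mRNA.

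The order of the genes by RPKM, which is per length, changed with stress at both ends. Without DTT, INO1 was the lowest of the 10 in mRNA and in footprints with no overlap to the next gene, and CHO1 was the highest. With DTT and Hac1, OPI3 was the highest, and INO1 was 8th in both molecules, its range overlapping those of INO2 and CKI1 in mRNA and those of PSD1 and INO2 in footprints. After depletion with DTT, INO1 was again the lowest in both.

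Both activator genes were called lower after depletion under DTT, INO2 in footprints and INO4 in mRNA. INO2 mRNA was between 91.8 and 105.1 RPKM without DTT, 121.0 and 90.0 in retained cells with DTT, and 72.4 and 65.3 in depleted cells with DTT. The vehicle-treated cells with DTT had 128.7 and 97.7 (no TIR) and 141.6 and 76.0 (TIR). The depleted pair was the lowest of all 11 libraries. INO2 was also lower at 2 h than at 1 h by -0.41 ± 0.11 (adjusted p = 0.0466), the single gene of the 10 so called in mRNA, where 2.50% of all genes were lower at 2 h. Leaving out any 1 of the 8 DTT libraries ended that call, at -0.29 to -0.47. The same comparison of hours in footprints was outside the planned tests, and INO2 and INO4 were called there.

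INO2 mRNA fell by 0.51 ± 0.17 on the log2 scale with DTT in depleted cells (adjusted p = 0.0247), and its change in retained cells was 0.36 ± 0.22 (adjusted p = 0.199). INO2 footprints were 48.1 and 32.8 RPKM in retained and 29.4 and 18.1 in depleted cells with DTT. They rose in retained cells by 0.66 ± 0.22 (adjusted p = 0.0279). In depleted cells their change of -0.35 ± 0.17 was not called (adjusted p = 0.0981), though it was under median-ratio scaling (-0.65, adjusted p = 0.00625) and without the 1 h depleted library lacking DTT (-0.55, adjusted p = 0.0344), which also added a call for the footprint response difference (-1.25, adjusted p = 0.0247). They were lower in depleted than in retained cells by -0.76 ± 0.17 (adjusted p = 0.0315). Against vehicle in TIR cells they were lower by -1.0 ± 0.17 (adjusted p = 0.0131).

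The INO2 footprint difference from retained cells was -0.69 at 1 h and -0.83 at 2 h, yet leaving out any 1 of the 4 libraries compared ended the call (-0.63 to -0.89, adjusted p up to 0.233). The mRNA call in depleted cells ended without the 2 h depleted library lacking DTT (-0.37) or the 1 h one with DTT (-0.34). The footprint increase in retained cells ended without either retained DTT library and under median-ratio scaling (0.32). With no filter and without the hour term both ended too (adjusted p = 0.0886 and 0.145 in mRNA, 0.0848 and 0.377 in footprints). The call against vehicle ended without either depleted DTT library or the 1 h vehicle library (-0.80 to -1.13, adjusted p up to 0.147), while leaving out the 2 h vehicle library added an mRNA call there (-0.89, adjusted p = 0.02).

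INO4 mRNA was between 187.5 and 220.6 RPKM without DTT and between 288.5 and 392.8 with DTT and Hac1. In depleted cells with DTT it was 208.5 and 233.0, under every library with DTT and Hac1 and beside the unstressed values. It rose by 0.71 ± 0.21 in retained cells (adjusted p = 0.0185), its change in depleted cells was 0.14 ± 0.16 (adjusted p = 0.479), and under DTT it was lower in depleted than in retained cells by -0.67 ± 0.16 (adjusted p = 0.0335). That difference was -0.91 at 1 h and -0.43 at 2 h, and it was not called without the 1 h retained (adjusted p = 0.353) or the 1 h depleted DTT library (adjusted p = 0.347).

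The footprint difference of INO4 from retained cells was -0.28 ± 0.09 and was not called (adjusted p = 0.0862), with -0.31 at 1 h and -0.25 at 2 h. The translational efficiency difference, 0.39 ± 0.15, was not called either (adjusted p = 0.335), so the molecules were not shown to differ. INO4 footprints were between 89.5 and 110.6 RPKM without DTT, between 157.1 and 197.7 with DTT and Hac1, and 158.9 and 148.6 in depleted cells with DTT. They rose by 0.84 ± 0.11 in retained (adjusted p = 3.95e-04) and 0.68 ± 0.09 in depleted cells (adjusted p = 2.44e-04), and translational efficiency rose in depleted cells by 0.54 ± 0.15 (adjusted p = 0.0287). The retained mRNA call was lost with no filter (adjusted p = 0.0665). With median-ratio scaling it was lost as well (0.46, adjusted p = 0.122), as it was without the 1 h retained DTT library (0.53). Under that scaling the depleted mRNA value turned to -0.12, not called on either scale. The translational efficiency call was lost under that scaling (adjusted p = 0.0506), and without the 2 h depleted library lacking DTT (0.36) or the 1 h one with DTT (0.44).

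OPI1, the repressor gene, had 399.7 to 432.2 RPKM of mRNA without DTT and 444.4 to 701.5 with DTT and Hac1. In depleted cells with DTT it had 428.2 and 478.7, which overlapped both. Its mRNA change in retained cells, 0.60 ± 0.23, was not called (adjusted p = 0.0562). OPI1 footprints rose by 0.51 ± 0.11 in retained (adjusted p = 0.00414) and 0.56 ± 0.09 in depleted cells (adjusted p = 6.39e-04), although the retained call was lost under median-ratio scaling (0.17). Its translational efficiency in depleted cells was not called (0.47 ± 0.20, adjusted p = 0.112), except without the 2 h depleted DTT library (0.70, adjusted p = 0.0469).

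The 3 comparisons that check the system were auxin against vehicle in no-TIR cells with DTT, TIR against no-TIR cells with vehicle and DTT, and depleted against retained cells without DTT. Under limma, 0 of the 10 genes were called in any of them, in mRNA, footprints or translational efficiency. At an unadjusted p under 0.05 there was 1, PSD1 footprints between TIR and no-TIR cells (0.25 ± 0.10, adjusted p = 0.994). Among all genes 0% were called in mRNA in each of the 3. Without DTT 0.0749% were called in footprints and 0.188% in translational efficiency, and 0.0188% were called in translational efficiency for auxin in no-TIR cells. Without DTT, INO1 mRNA at 1 h had exact Poisson 95% intervals of 6.39 to 10.1 RPKM in retained and 7.02 to 10.1 in depleted cells. The overlap of separate intervals is not a test of a difference.

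In the deletion experiment each group was 1 library per molecule, so there was no replicate check and no test, and a gene was counted when its log2 difference was at least 1 in size. WT cells had 12 RPKM of INO1 mRNA without drug, 217.4 with DTT and 105.5 with Tm. In hac1 deletion cells it was 15.8, 24.2 and 14.9 RPKM in the same order. The WT values with either drug stood apart from the other 4.

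In WT, INO1 had 4.22 RPKM of footprints without drug, 157.0 with DTT and 52.4 with Tm, while the deletion had 1.79, 4.52 and 3.27. The WT ratios were 0.352, 0.722 and 0.497, and the deletion ratios 0.113, 0.187 and 0.220. In translational efficiency on the log2 scale, INO1 differed by 0.85 with DTT in WT and by 0.40 in the deletion, and 0 of the 10 genes were past the fold in either, where 2.71% and 1.80% of all genes were. Between strains, INO1 was lower in the deletion by -1.28 untreated and -1.72 with DTT, the single gene of the 10 past the fold in each, where 2.29% and 2.21% of all genes were.

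In RPKM, DTT in WT went with 18.1-fold more INO1 mRNA and 37.2-fold more footprints, and Tm with 8.8-fold and 12.4-fold more. In the deletion the corresponding folds were 1.52 and 2.52 for DTT and 0.938 and 1.82 for Tm.

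The untreated INO1 footprint libraries held an estimated 17 (WT) and 13 (deletion) reads, with exact Poisson 95% intervals of 2.46 to 6.77 and 0.955 to 3.07 RPKM. These intervals overlap. The DTT libraries held 1085 and 59 reads, with intervals of 148 to 167 and 3.44 to 5.84 RPKM.

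**Figure D4:**
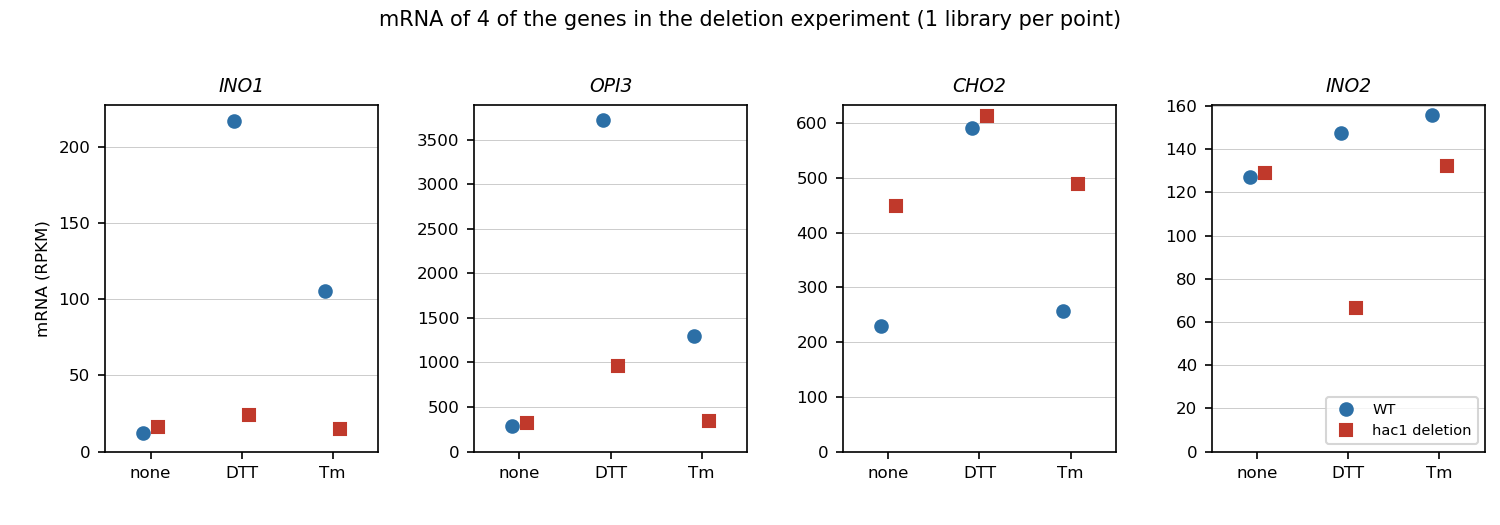
mRNA RPKM (linear axes from 0) of INO1, OPI3, CHO2 and INO2 in WT (blue circles) and hac1 deletion cells (red squares), untreated, with DTT and with Tm, 1 library per point; these 4 were past the fold in a comparison of the strains or of WT with DTT in mRNA. INO1 stays between 14.9 and 24.2 RPKM in the deletion, and CHO2 is at 449.2 in untreated deletion cells against 229.8 in WT.

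OPI3 followed INO1 in WT cells and less closely in the deletion. Its mRNA was 281.0, 3716.4 and 1300.1 RPKM in WT (untreated, DTT, Tm) and 320.9, 964.0 and 346.6 in the deletion. Its footprints were 166.6, 2245.3 and 665.1 against 225.2, 630.8 and 241.5 RPKM. OPI3 was the one gene of the 10 past the fold with DTT in the deletion, by 1.58 in mRNA and 1.48 in footprints, where 14.3% and 16.2% of all genes were past it. INO1 footprints, 2.52-fold higher in RPKM, came to 0.98 on this scale, and with a pseudocount of 0.1 they were past the fold too, at 1.29. With Tm in the deletion it was 0 of 10 in both, where 0.755% and 0.964% of all genes were.

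In WT with DTT, INO1 (4.07), OPI3 (3.72) and CHO2 (1.36) were past the fold in mRNA, 3 of 10 where 25.3% of all genes were. That count is close to the background. In footprints these and CKI1 (1.14), ITR1 (1.08) and INO4 (1.07) made 6 of 10, where 28.2% were. With Tm, INO1 (3.03 and 3.35) and OPI3 (2.21 and 1.99) were past it in mRNA and footprints, where 13.3% and 14.2% were. These Tm counts are close to the background too. Fewer of the 10, and fewer of all genes, were past the fold with Tm than with DTT.

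CHO2 was higher in the deletion library than in the WT library before any drug, with 1 library per strain and molecule and no test. Its mRNA was 229.8, 590.4 and 256.1 RPKM in WT and 449.2, 613.9 and 489.4 in the deletion, and its footprints 93.9, 335.0 and 106.9 against 228.3, 271.0 and 322.8. The deletion was above WT in untreated footprints by 1.27, the single gene of the 10 past the fold there, where 9.30% of all genes were. That count is close to the background. In untreated mRNA 0 of 10 were past the fold, where 7.94% were. The median over all genes was also above WT in the untreated deletion, by 0.21 in mRNA and 0.20 in footprints. CHO1 mRNA was likewise higher in the deletion, at 1235.9, 1352.7 and 1429.0 RPKM against 871.3, 1066.1 and 814.8.

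Under DTT, deletion cells had less mRNA of INO1 (-3.12), OPI3 (-1.95) and INO2 (-1.14) than WT, 3 of 10 where 7.41% of all genes were lower past the fold. In footprints the same genes differed by -4.84, -1.83 and -1.26, where 8.63% were lower. Under Tm, INO1 (-2.75) and OPI3 (-1.90) were lower in mRNA, where 15.5% of all genes were past the fold in either direction. In Tm footprints INO1 (-3.65) and OPI3 (-1.46) were lower and CHO2 (1.59) was higher, where 18.1% were past it in either direction. The Tm shares are thus not comparable with the DTT shares, which count lower genes only.

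INO2 mRNA with DTT was 66.3 RPKM in the deletion, against 128.8 there without drug, and 147.3 against 127.3 in WT. INO2 footprints were 29.4 against 53.7 RPKM in the deletion and 71.8 against 41.2 in WT. With Tm, INO2 mRNA was 132.1 RPKM in the deletion and 156.0 in WT, so the low value was seen with DTT and not with Tm. OPI1 mRNA was lower in the deletion than in WT in all 3 conditions, at 286.1, 312.8 and 295.0 against 430.3, 496.5 and 349.4 RPKM. Between the strains the other 6 genes were within the fold in mRNA and footprints in all 3 conditions. INO4 mRNA was 173.6, 348.1 and 269.5 RPKM in WT and 190.2, 229.2 and 198.9 in the deletion.

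For genes with a pattern like that of INO1, the mean absolute difference of log2 mRNA profiles, each centred on its own mean over the 11 auxin libraries, was taken for 5756 other genes. Likeness here is a description over libraries that share their controls and strains. The 5 closest were SIL1 (0.13), HEM15 (0.17), IRC4 (0.17), ERO1 (0.18) and DOG1 (0.19). SIL1 encodes a nucleotide exchange factor of the ER chaperone Kar2, ERO1 an ER thiol oxidase, HEM15 ferrochelatase and DOG1 a 2-deoxyglucose-6-phosphate phosphatase. Their mRNA changes with DTT in retained and depleted cells were 3.41 and 0.99 for SIL1, 3.24 and 1.17 for HEM15, and 3.58 and 1.62 for ERO1. Of the other 9 genes described here, OPI3 was the closest, at rank 53 (0.63), and the rest ranked from 635 (INO4) to 4713 (PSD1).

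Beyond the 10 genes, 51 genes of lipid metabolism in 8 lists were examined. Their values come from the same limma fit without any alternative setting. How far their calls depend on the filter, the scaling or single libraries was not examined. In mRNA, 20 rose and 3 fell with DTT in retained cells, where 28.6% of all genes rose. In depleted cells 25 rose and 4 fell, where 41.1% rose and 17.5% fell, all under the same limma test. Between depleted and retained cells under DTT, LPP1 and SCS3 were lower, where 3.75% of all genes were lower, and PLB1 and PLB2 were higher. The 2 of 51 that were lower are a share close to that background. In mRNA, LPP1 and SCS3 were the 2 of the 51 that differed in their DTT response, where 1.06% of all genes did. In footprints 32 rose and 5 fell in retained cells, where 47.5% of all genes rose, and 30 rose and 9 fell in depleted cells, where 49.6% rose. Some counts here have no share of all genes beside them. These are the falls in retained mRNA and in footprints, and the genes higher after depletion. They are not read against a background.

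SCS3, whose loss makes yeast need inositol, rose by 2.83 ± 0.24 in mRNA in retained cells and by 1.00 ± 0.19 in depleted cells, a difference in response of -1.83 ± 0.31 (adjusted p = 0.0179). LPP1, a phosphatidic acid and lipid phosphate phosphatase, rose by 1.84 ± 0.17 in retained cells, with a difference of -1.10 ± 0.22 (adjusted p = 0.0425). Other phosphatidic acid phosphatase genes rose in both, APP1 by 1.30 ± 0.21 and 1.69 ± 0.17 and PAH1 by 1.12 ± 0.20 and 1.30 ± 0.16. The phospholipase B genes PLB1 (2.69 ± 0.21 and 3.18 ± 0.17) and PLB3 (1.51 ± 0.23 and 1.84 ± 0.18) also rose in both, and PLB1 was higher in depleted than in retained cells by 0.69 ± 0.17 (adjusted p = 0.0329).

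In the list of inositol supply and phosphatidylinositol synthesis, 2 of 5 genes rose in mRNA in each state. Of all genes, 28.6% (retained) and 41.1% (depleted) rose, so the count in depleted cells is close to the background. GIT1, a glycerophosphoinositol transporter, rose by 0.92 ± 0.22 in retained and 0.92 ± 0.17 in depleted cells, and INM2, an inositol monophosphatase, by 0.74 ± 0.20 and 0.73 ± 0.16. In footprints 4 of the 5 rose in each state, where 47.5% (retained) and 49.6% (depleted) of all genes rose. GIT1 footprints rose by 1.15 ± 0.39 and 1.87 ± 0.31, and INM2 footprints by 1.12 ± 0.17 and 0.82 ± 0.14. EPT1, which makes phosphatidylethanolamine from CDP-ethanolamine, rose by 0.99 ± 0.16 and 0.42 ± 0.13. HNM1, the choline transporter, fell by 0.65 ± 0.20 and by 0.45 ± 0.16 on the log2 scale.

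Across the series, HAC1 mRNA was 42.1, 5.4 and 17.7 RPKM in the hac1 deletion libraries (untreated, DTT, Tm) against 2372.2, 5215.6 and 4324.8 in WT. KAR2, the ER chaperone gene used as a marker of the response, rose by 3.71 ± 0.15 in mRNA in retained and 1.99 ± 0.12 in depleted cells, and under DTT it was lower in depleted cells by -1.93 ± 0.12 (adjusted p = 4.29e-06). In the deletion experiment KAR2 mRNA was 907.3, 1276.8 and 1023.2 RPKM in the hac1 deletion (untreated, DTT, Tm). In WT it was 1440.1, 13672.7 and 13188.5. Reads in genes were estimated at 10.2 to 32.3 M (mega) per mRNA and 6.5 to 36.5 M per footprint library in the auxin experiment. RPKM is relative to each library, so it gives a gene's share of the reads and not its amount per cell.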

How the data were processed

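The authors deposited 2 tables of 6679 genes. Per the file headers, the deletion table holds RPKM. No unit is written in the auxin table, whose deposited values share the range and sums of the other and were treated as RPKM. CASAVA, bcl2fastq 2.17 and Bowtie2 are named in the submitters' processing notes; the sources used here do not give build, annotation, counting rule or strandedness. Libraries follow titles and column names: another label field calls the 12 deletion libraries by the opposite molecule. Read numbers were estimated from the step between low values, of which 79.2% to 87.4% were whole (within 0.02) per auxin library; no count model was fitted. Of the identifiers, 5994 matched NCBI RefSeq (assembly R64), used for symbols and overlaps only.

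Values were taken as log2(RPKM + 1). Genes averaging 5 RPKM or more over the 11 auxin libraries of a molecule (5757 in mRNA, 5338 in footprints, 5329 in translational efficiency) were fitted with limma 3.58.1 (R 4.3.3), with a mean-variance trend, a term per group and an additive hour term, leaving 4 residual degrees of freedom. The 1 h and 2 h libraries serve as replicates, and nothing says that they are separate cultures. With the hour term, p-values measure how much the 2 h minus 1 h differences vary between groups. That spread may be technical or an effect of time that differs by group, and need not cover variation between cultures. The hour, printed in the titles, was the block. Deviations of same-hour libraries correlated between -0.09 and 0.61 in mRNA and between 0.02 and 0.77 in footprints. Among the groups with DTT the lowest were 0.25 and 0.59, so all values under these involve depleted cells without DTT. The hour term is 1 shift for all groups, and whether cells without DTT share it was not tested. The lone retained control is assumed to vary like other groups.

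All 10 genes are reported. From other lists, at most 4 genes per list with the largest called changes were named, and for likeness the 5 closest to INO1. Members and lists were chosen with earlier results of these data known. Alternatives were other pseudocounts (0.1 and 5), no filter, median-ratio scaling, no hour block and leaving out each library pair. The fit was tested on simulated data.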

Additional observations from a re-analysis of the deposited data

Results flagged for a closer look

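The DTT response of INO1 differed between depleted and retained cells by a limma test of the difference itself. It was smaller in depleted cells by -2.45 in mRNA, -3.85 in footprints and -1.40 in translational efficiency, each from 2 depleted pairs of libraries with DTT, 2 depleted without, 2 retained with and 1 retained without. Without DTT the INO1 footprint values rest on an estimated 4 reads in the retained library and 19 in each depleted library. The translational efficiency difference was called in 3 of the 11 alternatives tried, with -0.88 (adjusted p = 0.201) at a pseudocount of 5 and an adjusted p of 0.586 with no filter on low values. The mRNA difference was not called with no filter (adjusted p = 0.0912), and the footprint difference was called in all of its alternatives.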

How the results depend on the processing

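Depth limits INO1 footprints without DTT most, with an estimated 4 to 19 reads. Each called INO1 value kept its direction in every alternative, and the mRNA and footprint calls held in all but the mRNA response difference with no filter on low values. Counts of the 10 genes called moved in the settings below, which do not list every move. The causes were not tested. In footprints, INO2 and ITR1 lost their retained calls, and CHO2 its depleted call, with no filter and without the hour block. In both of these settings CHO2 mRNA also lost its retained call and INO2 mRNA its depleted call. With no filter, mRNA counts were 3 (from 5) for the retained DTT response, 1 (from 3) for depleted against retained, 1 (from 2) for auxin in TIR cells, 0 (from 1) for the response difference and 0 (from 1) for 2 h against 1 h. Footprint counts were then 1 (from 2) for depleted against retained and for auxin in TIR cells, and translational efficiency counts 0 in all 5 DTT comparisons (from 1, or 2 for the depleted response). With median-ratio scaling the retained mRNA count was 3, with PSD1 gained, and translational efficiency counts were 0 for the depleted response and the response difference. With a pseudocount of 5, translational efficiency counts were 0 for the retained response and the response difference. Without the hour block, counts were 1 for depleted against retained and for auxin in TIR cells, in mRNA and in footprints, with INO1 as the gene called, and 0 for the translational efficiency response difference (INO1 -1.43, adjusted p = 0.074). Same-hour deviations correlated above 0.1 in 8 of 10 mRNA and 6 of 10 footprint pairs of groups. Leaving out 1 library at a time gave mRNA counts of 3 to 3 for the retained response, 3 to 6 depleted, 1 to 2 depleted against retained, 1 to 3 for auxin in TIR cells and 0 to 1 for the hours. It gave footprint counts of 1 to 2 for depleted against retained, for auxin in TIR cells and for the response difference, and translational efficiency counts of 0 to 3 for the depleted response and 0 to 1 for the response difference. In the deletion experiment, counts past the fold under median-ratio scaling were 3 (from 6) for WT DTT footprints, 2 (from 1) for deletion DTT mRNA and footprints, and 2 (from 1) for untreated deletion against WT footprints. With a pseudocount of 0.1 these last 2 footprint counts were also 2, and translational efficiency counts were 1 (from 0) for WT with DTT and for deletion against WT with Tm. With a pseudocount of 5 the untreated strain comparison in translational efficiency had 0 (from 1). Pooling the unstressed libraries as 1 control, chosen after seeing the data, gave 7 mRNA and 9 footprint calls for the retained response, with INO1 at 3.52 and 4.95. Among uncalled values the sign changed in 126 of 2270 auxin and 27 of 810 deletion values.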
